A study of Mus musculus with 6 samples.

Results

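A set of 10 genes that mark macrophages and other leukocytes were followed in RNA from sorted choroid ECs, the endothelial cells of the vessel bed behind the retinal pigment epithelium (RPE). The genes are the complement genes C1qa, C1qb and C1qc, the receptors Csf1r, Cx3cr1, Mrc1 and Cd14, the pan-leukocyte gene Ptprc (CD45), and Lyz2 and Cd68. They are 10 of the 22026 gene symbols listed in each isolation, and all 10 were among the 12481 genes tested between ages, those with a mean of at least 5 FPKM (fragments scaled to transcript length and to sequencing output) at P5 or P30. The genes were found by symbol, and the list had been chosen by their FPKM in these same 6 isolations, that is with the age difference and the order of the isolations in view. Their own values are therefore given as a description without a p-value, and p-values are given only for genes outside the list. Where members past the limits of the fit are counted, nothing is read from the count.

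The samples were 3 isolations from P5 and 3 from P30 mice of the strain 129/B6, untreated and without an engineered allele named in the labels, with 7 animals pooled in each isolation. An antibody to VE-Cadherin was injected into the living animals, the dissected RPE and choroid were digested, and labelled cells were collected by flow cytometry, with both sexes used at P30. A step that removes CD45-positive cells is not given in the sources used here. Pooling hides the spread between animals, so each error below is the spread between isolations.

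Macrophages are phagocytes that seed tissues before birth and persist beside vessels, and the choroid is known for a dense network of them. Their survival rests on CSF1R, the receptor of CSF1 and IL-34. CD45 is a phosphatase on the surface of leukocytes, and C1q, the recognition unit of the classical complement pathway, is made mainly by tissue macrophages. ECs are not a usual source of CD45 or C1q, whereas CD14, lysosomal CD68 and the mannose receptor MRC1 can also be found in other cells, lymphatic endothelium among them for MRC1.

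The cells carried the endothelial label in every isolation. The 12 endothelial markers summed to between 24505 and 26852 FPKM at P5 and between 34728 and 42893 FPKM at P30, led by Plvap, the protein of fenestral diaphragms, and Emcn, a sialomucin of capillaries and veins. Against this sum, the 10 leukocyte genes together amounted to between 6.29% and 7.61% at P5 and between 1.28% and 3.28% at P30. The endothelial sum was itself higher at P30, so the percentages also carry its change. Mean Plvap was 4692 FPKM at P5 and 11590 FPKM at P30, and mean Emcn 3002 and 5523 FPKM. Cdh5, the gene of VE-Cadherin, went the other way, with 2971 and 1885 FPKM. Pecam1 had 1611 and 1421 FPKM, with overlap of the ages. Taken alone, the 10 leukocyte genes summed to between 1542 and 1967 FPKM at P5 and between 443 and 1406 FPKM at P30. The FPKM of all genes summed to between 1432700 and 1485332 at P5 and between 1571227 and 1734639 at P30. With FPKM alone the depth of a library is unknown, and no counting error is given.

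Promoter windows from the RefSeq table (GRCm38.p6) were examined, because most members moved together over the isolations. Of the 10 members, 7 had at least 1 window, 8 windows in all, and the 250 bases before the gene start were searched on both strands for AGGAAGT. This is a core bound by PU.1, a transcription factor that macrophages depend on, and it was chosen after the sequences had been seen. It was found in 5 of these 7 members (C1qb, C1qc, Lyz2, Mrc1 and Ptprc) and in 7.69% of the 32851 windows of all genes. The windows of Cx3cr1 and Cd68 had no match, and those printed below are all from members with a match. The longer form GAGGAAGT, which contains the core, was found in 1 of the 7, C1qc, and in 2.44% of all windows. Members are set here beside single windows, and Ptprc had 2 windows. Since the core was also chosen with the sequences in view, nothing is read from these counts. A match describes letters and is not a shown binding site. The windows below are those of 2 C1q chains that moved together, of Mrc1, which had the largest age difference of the members on the log2(FPKM + 1) scale, and of Lyz2, which overlapped between ages, each read toward its gene with the matches in capitals.
C1qb: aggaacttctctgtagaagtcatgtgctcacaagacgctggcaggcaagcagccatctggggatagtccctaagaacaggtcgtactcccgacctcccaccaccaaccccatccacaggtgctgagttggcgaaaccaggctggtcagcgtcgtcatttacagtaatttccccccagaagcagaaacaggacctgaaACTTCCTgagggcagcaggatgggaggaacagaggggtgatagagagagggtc
C1qc: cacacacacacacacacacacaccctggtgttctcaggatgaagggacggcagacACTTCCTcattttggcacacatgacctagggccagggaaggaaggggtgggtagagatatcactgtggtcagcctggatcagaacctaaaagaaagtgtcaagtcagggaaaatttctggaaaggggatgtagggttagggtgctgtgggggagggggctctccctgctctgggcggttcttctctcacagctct
Mrc1: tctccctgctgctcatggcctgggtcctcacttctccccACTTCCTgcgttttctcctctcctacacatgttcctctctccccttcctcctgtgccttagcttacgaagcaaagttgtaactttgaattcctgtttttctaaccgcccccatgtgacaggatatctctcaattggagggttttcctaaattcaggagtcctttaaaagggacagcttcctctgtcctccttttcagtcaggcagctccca
Lyz2: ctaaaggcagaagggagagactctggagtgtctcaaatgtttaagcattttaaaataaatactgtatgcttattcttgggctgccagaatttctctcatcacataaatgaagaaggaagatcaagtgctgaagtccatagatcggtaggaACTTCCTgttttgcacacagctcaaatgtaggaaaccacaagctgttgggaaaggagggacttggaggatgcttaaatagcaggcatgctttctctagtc
In GRCm38.p6 they lie at chr4:136886201-136886450 (minus strand), chr4:136892915-136893164 (minus strand), chr2:14229164-14229413 (plus strand) and chr10:117282273-117282522 (minus strand). The match began 53 bases before the start of C1qb, 195 before that of C1qc, 211 before that of Mrc1 and 100 before that of Lyz2.

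The 3 C1q genes, whose protein chains assemble into one C1q molecule, were lower at P30 and kept nearly equal levels throughout. They lie side by side on chromosome 4 within 18675 bases of mm9 (136436044 to 136454718), all on the minus strand. C1qa had 296, 301 and 232 FPKM in P5 replicates 1, 2 and 3 and 148, 42.4 and 100.7 FPKM in P30 replicates 1, 2 and 3. C1qb had 289, 329 and 249.8 FPKM at P5 and 169, 32.2 and 134 FPKM at P30. C1qc had 286, 312 and 202 FPKM at P5 and 194, 41.9 and 113 FPKM at P30. Each P30 isolation lay below each P5 isolation for all 3 chains, P30 replicate 2 was the lowest of all 6, and the gap was narrow for C1qc. The mean was 2.85, 2.59 and 2.30 times higher at P5 for C1qa, C1qb and C1qc. Within an isolation, C1qa divided by C1qb stayed between 0.754 and 1.32, while the level of C1qb ran from 32.2 to 329 FPKM. In these sorted samples, fewer macrophages and less C1q RNA per macrophage cannot be told apart.

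Csf1r, the receptor tyrosine kinase that keeps macrophages alive (chromosome 18, 61265226 to 61291803 of mm9, plus strand), was close to the C1q chains in level and pattern. It had 262, 248 and 169.4 FPKM in the P5 isolations and 169.1, 36.6 and 65.1 FPKM in the P30 isolations. The ages did not overlap, but P5 replicate 3 and P30 replicate 1 were nearly equal. The annotated gene Hmgxb3 overlaps it on the other strand, with 40.9 ± 1.796 FPKM (SD, n = 3) at P5 and 40.0 ± 7.12 FPKM at P30, and a count without strand does not separate reads of their shared bases. Divided by the geometric mean of the C1q chains in the same isolation, Csf1r was 0.813 ± 0.0818 at P5 and 0.838 ± 0.237 at P30, so the ratio moved by less than its spread.

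Mrc1 and Cx3cr1 showed larger age differences than C1q. Mrc1, an endocytic receptor for mannose-bearing ligands (chromosome 2, 14151041 to 14253684), had 247, 244 and 273 FPKM at P5 and 84.1, 11.6 and 38.4 FPKM at P30. The P5 values were within 1.12-fold of each other, while the P30 values spanned 7.27-fold. Cx3cr1, the receptor of the chemokine fractalkine on microglia, monocytes and many tissue macrophages (chromosome 9, 119957811 to 119977400), had 102, 104 and 97.1 FPKM at P5 and 30.2, 6.39 and 16.2 FPKM at P30. Both genes separated the ages widely, with P30 replicate 1 the highest and P30 replicate 2 the lowest of the later isolations. The mean was 5.70 times higher at P5 for Mrc1 and 5.74 times for Cx3cr1. The ratio of Cx3cr1 to C1q was 0.370 ± 0.0507 at P5 and 0.162 ± 0.0189 at P30, and that of Mrc1 to C1q was 0.945 ± 0.226 and 0.377 ± 0.105, with no overlap of the ages in either ratio.

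Ptprc was the least abundant member and the most even at P30. The gene (chromosome 1, 139959438 to 140071882) had 25.4, 27.7 and 28.3 FPKM in the P5 isolations and 7.97, 7.61 and 7.88 FPKM in the P30 isolations. The P30 values were within 1.05-fold of each other, where those of C1qb spanned 5.25-fold and those of Mrc1 7.27-fold. The geometric mean of the C1q chains was 169 FPKM in P30 replicate 1 and 38.6 FPKM in P30 replicate 2, while their Ptprc was nearly the same. Ptprc divided by C1q was 0.0471, 0.197 and 0.0686 in P30 replicates 1, 2 and 3, against 0.0877, 0.0881 and 0.125 in P5 replicates 1, 2 and 3. Its ratio to C1q therefore did not separate the ages, and P30 held both the lowest and the highest ratio.

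Lyz2, Cd14 and Cd68 overlapped between ages. Lyz2, which encodes the lysozyme of myeloid cells (chromosome 10, 116714390 to 116719377), had 263, 215 and 134 FPKM at P5 and 380.4, 124 and 257 FPKM at P30. Cd14, the co-receptor for bacterial lipopolysaccharide (chromosome 18, 36884728 to 36886390), had 61.2, 74.2 and 47.5 FPKM at P5 and 146, 56.4 and 56.85 FPKM at P30. Both had their highest value in P30 replicate 1, and the other P30 isolations lay within or near the P5 range. On the scale of log2(FPKM + 1), the difference of Lyz2, P30 minus P5, was 0.23, and it was -0.05 without P5 replicate 3 and -0.14 without P30 replicate 1. That of Cd14 was 0.37, and it was -0.08 without P30 replicate 1. Lyz1, a near-identical neighbour of Lyz2 at 116724852 to 116729924 of the same chromosome, had 25.5 ± 13.04 FPKM (SD, n = 3) at P5 and 20.2 ± 11.2 FPKM at P30. How the counting split reads between both lysozymes is not given in the sources used here, so the level of each is uncertain.

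Cd68, a lysosomal glycoprotein (chromosome 11, 69477715 to 69479655), had 126, 112 and 109 FPKM at P5 and 77.9, 83.45 and 122 FPKM at P30. It was the only member whose highest P30 value was in replicate 3 and whose lowest was in replicate 1, an order held by 15.5% of all genes tested. Relative to C1q in the same isolation, the means of Lyz2, Cd14 and Cd68 were higher at P30, whereas those of Cx3cr1 and Mrc1 were lower. Lyz2 divided by C1q was 0.728 ± 0.163 at P5 and 2.57 ± 0.568 at P30, and Cd14 divided by C1q was 0.219 ± 0.0152 and 0.940 ± 0.489, with no overlap of the ages. For Cd68 the same ratio was 0.423 ± 0.0607 and 1.23 ± 0.864, and the value of P30 replicate 1, 0.460, lay inside the P5 range.

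**Figure D1:**
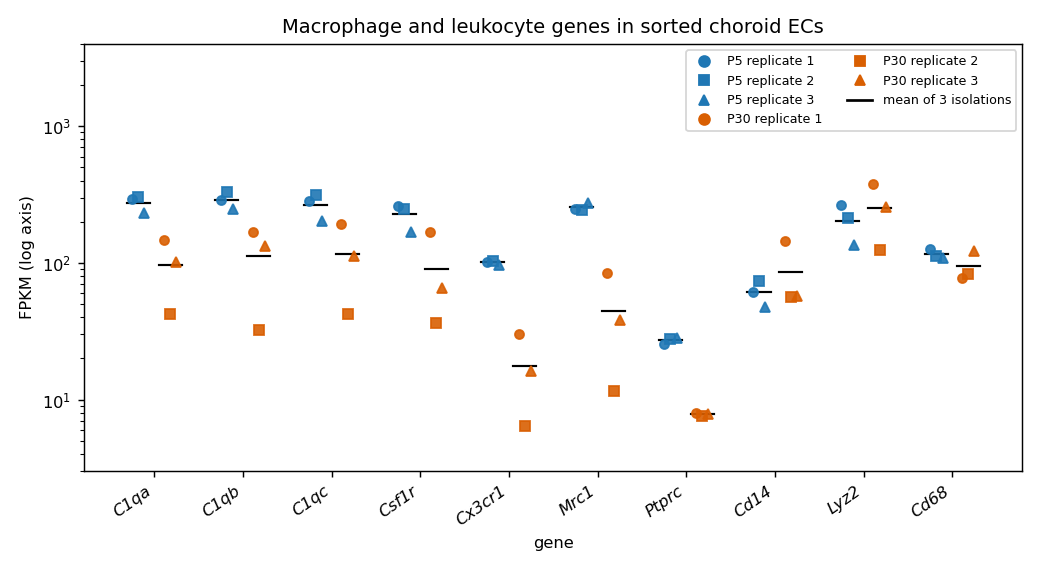
FPKM of the 10 member genes on a log axis, with 1 point per isolation, P5 in blue, P30 in orange, the replicate number given by the symbol and a black bar for the mean of 3 isolations. The 7 genes on the left have every P30 point below every P5 point, Ptprc has P30 points between 7.61 and 7.97, and Cd14, Lyz2 and Cd68 overlap between ages.

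**Figure D2:**
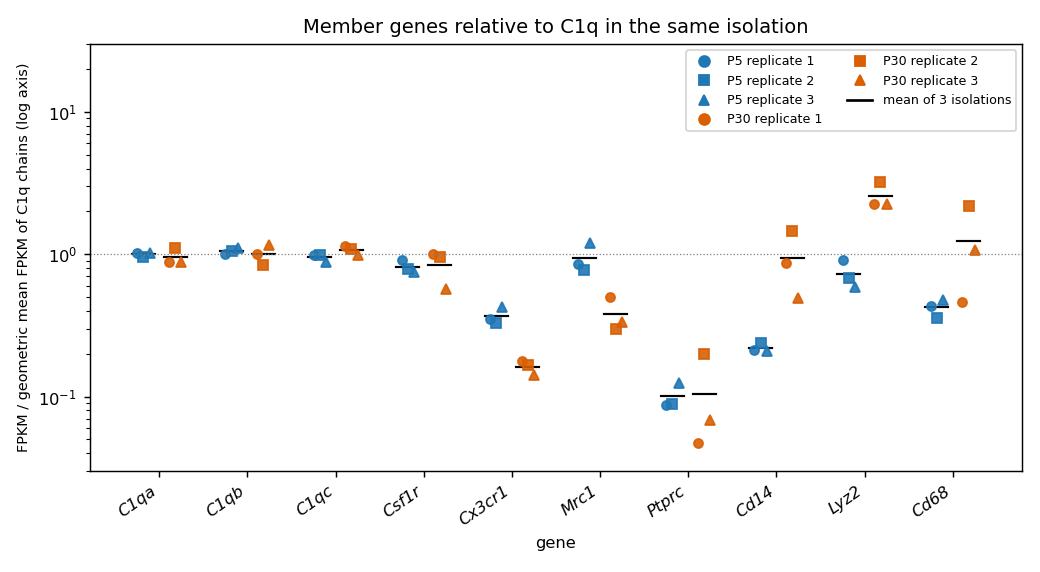
FPKM of each member divided by the geometric mean FPKM of the 3 C1q chains in the same isolation, on a log axis, with symbols and colours for isolations and ages and a black bar for the mean. Cx3cr1 and Mrc1 lie lower at P30 and Cd14 and Lyz2 higher, Csf1r overlaps, and the Ptprc points of P30 run from 0.0471 to 0.197.

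Over the list, 7 of the 10 members had every P30 isolation below every P5 isolation, which held for 33.0% of all genes tested, and 0 of the 10 had every P30 isolation higher, which held for 22.0%. On the scale of log2(FPKM + 1), the median difference of the members, P30 minus P5, was -1.62, against -0.10 over all genes tested, and it ran from -2.88 for Mrc1 to 0.37 for Cd14. In the fit across all genes (limma, Benjamini-Hochberg adjusted p below 0.01 and a difference of 2-fold or more in mean FPKM + 1), 3 members were past the limits, Ptprc, Cx3cr1 and Mrc1, each higher at P5, as were 5.82% of all genes tested. Since the members were listed with this contrast known, nothing is read from that count. It was 1, Ptprc, without P5 replicate 1, without P5 replicate 2, without P5 replicate 3 or without P30 replicate 3, and 5 without P30 replicate 1.

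The order of the P30 isolations was shared by most members. In 9 of the 10, P30 replicate 1 was the highest, replicate 3 the second and replicate 2 the lowest, an order held by 10.8% of all genes tested. For Ptprc this order rested on values within 1.05-fold of each other, and for Cd14 replicates 2 and 3 were nearly equal. Summed over the 10 members, P30 replicates 1, 2 and 3 held 50.9%, 16.1% and 33.0% of their P30 FPKM. The 12 endothelial markers were spread more evenly, with 36.3%, 29.4% and 34.2%. The endothelial sum had the same order as the members, while the sums of RPE, pericyte and fibroblast genes had others. The 8 RPE genes summed to 3854, 2139 and 503 FPKM in P30 replicates 1, 2 and 3 and to between 68.3 and 149 FPKM at P5, and the 7 pericyte genes to 1872, 6290 and 3858 FPKM at P30 and to between 497 and 1765 FPKM at P5. The 7 fibroblast genes summed to 1815, 4557 and 2413 FPKM at P30 and to between 742 and 1212 FPKM at P5. All 7 RPE genes tested were in the order 1, 2, 3, held by 18.7% of all genes tested, and all 7 pericyte genes in the order 2, 3, 1, held by 25.9%. The part of these other cells in the levels of the leukocyte genes was not tested.

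**Figure D3:**
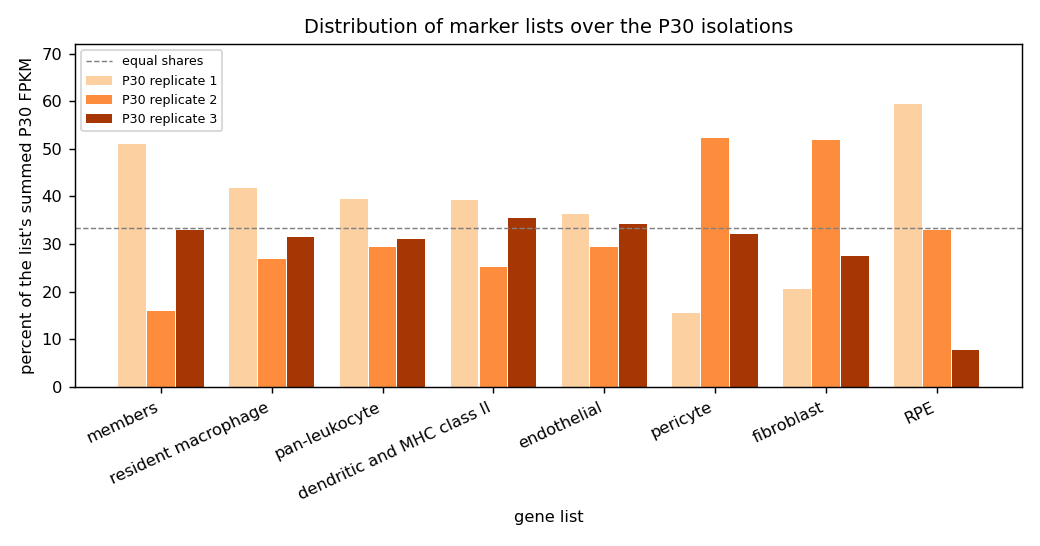
Percent of each list's summed P30 FPKM found in each P30 isolation, as bars from 0, with a dashed line at equal shares. The members run from 16.1% in replicate 2 to 50.9% in replicate 1, the pericyte and fibroblast lists have their highest bar in replicate 2, and the RPE list falls from replicate 1 to replicate 3.

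The 10 members were then set beside other leukocyte genes, which were not used to choose them. These lists were also written with earlier results of these data known, so their counts and p-values are not independent evidence of a direction. Of the 28 tissue macrophage genes tested, 10 were higher at P5 and 1 at P30, and their median log2 difference was -1.63. Over all genes tested, 5.82% were higher at P5 and 5.89% at P30, and these shares apply beside each list count below. The falls were led by P2ry13, a purine receptor, with a log2 difference of -3.05 (SE 0.56, adjusted p = 0.00559 from limma), F13a1, a transglutaminase subunit, with -2.59 (SE 0.41, adjusted p = 0.00298), Aif1, an actin-binding protein also known as Iba1, with -2.59 (SE 0.43, adjusted p = 0.00368), and Emr1, which encodes F4/80, with -2.39 (SE 0.43, adjusted p = 0.00551). P2ry13 had 17.8 ± 2.83 FPKM (SD, n = 3) at P5 and 0, 1.51 and 3.49 FPKM in P30 replicates 1, 2 and 3, not the order of the members. With P30 values this near 0, its difference was -4.41 with a pseudocount of 0.1 and -1.80 with 5. Emr1 had 98.4, 107 and 68.5 FPKM at P5 and 32.3, 8.25 and 16.0 FPKM at P30, and so repeated the order of the members. That order was held by 18 of the 28 genes and by 10.8% of all genes tested. The list also held genes with high levels that behaved otherwise. Lgmn, a lysosomal protease, fell from 389.7 ± 11.5 to 193 ± 14.3 FPKM (SD, n = 3, adjusted p = 0.000395 from limma) with P30 isolations within 1.15-fold of each other. Mertk, a receptor for apoptotic cells that the RPE also uses, rose from 96.8 ± 7.72 to 197 ± 11.99 FPKM (adjusted p = 0.00058 from limma).

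Of the 18 genes shared by most leukocytes that were tested, 8 were higher at P5, 10 did not pass the limits, and the median log2 difference was -1.72. Coro1a, which encodes an actin regulator of leukocytes, fell from 79.0 ± 14.6 to 16.4 ± 2.93 FPKM (SD, n = 3, adjusted p = 0.000369 from limma) and Lcp1, an actin-bundling protein, from 425 ± 40.3 to 166 ± 17.1 FPKM (adjusted p = 0.000334 from limma). Both were within 1.43-fold over the P30 isolations, as Ptprc was within 1.05-fold. Laptm5, a lysosomal membrane protein of blood cells, fell from 175 ± 15.3 to 52.7 ± 26.8 FPKM (adjusted p = 0.007 from limma) and had the P30 order of the members, with 79.1, 25.6 and 53.3 FPKM in replicates 1, 2 and 3. Among those that did not pass, Inpp5d, a lipid phosphatase, had 79.1 ± 3.00 and 78.9 ± 18.9 FPKM. In the 18 genes, 14 had every P30 isolation below every P5 isolation, which held for 33.0% of all genes tested. Another 1, Cd37, a tetraspanin named here for that count, had every one above, which held for 22.0%.

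Among the transcription factors, Sfpi1, the older symbol of Spi1, which encodes PU.1, fell from 39.5 ± 4.51 to 12.01 ± 5.29 FPKM (SD, n = 3, log2 difference -1.72, SE 0.32, adjusted p = 0.00586 from limma). Its ratio to C1q was 0.144 ± 0.0160 at P5 and 0.126 ± 0.0380 at P30, a difference below the SD of P30 but not that of P5. Of the 10 factors tested, 1 was higher at P5 and 3 at P30. Irf8, a factor of monocytes and macrophages, rose from 44.7 ± 3.90 to 141 ± 5.48 FPKM (adjusted p = 0.000168 from limma), Cebpa from 15.3 ± 2.79 to 49.6 ± 10.5 FPKM (adjusted p = 0.00172 from limma) and Cebpb from 61.0 ± 7.41 to 729 ± 338 FPKM (adjusted p = 0.000293 from limma). None of these 3 shared the P30 order of C1q. Maf had 152 ± 27.5 and 112 ± 13.9 FPKM, which was not past the limits (adjusted p = 0.072 from limma).

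Of the 6 genes tested for dendritic cells and class II antigen presentation, 2 were higher at P30. Cd74, the invariant chain, had 94.97, 46.3 and 13.7 FPKM in P5 replicates 1, 2 and 3 and 327, 196 and 292 FPKM in P30 replicates 1, 2 and 3. H2-Aa, a class II chain, had 48.5, 20.8 and 9.10 FPKM at P5 and 202, 112 and 151 FPKM at P30 (log2 difference 2.78, SE 0.53, adjusted p = 0.00647 from limma). H2-Ab1 rose with a log2 difference of 2.28 (SE 0.45, adjusted p = 0.00767 from limma), and Cd74 just missed the limits (adjusted p = 0.0122). In these 3 genes the ages did not overlap, and P5 replicate 3 was the lowest of the early isolations. Divided by C1q, H2-Aa was 0.0911 ± 0.0671 at P5 and 1.81 ± 0.954 at P30. Of the genes that define dendritic cells, Flt3 and Cd209a were listed at 0 in all 6 isolations and Itgax did not exceed 0.71 FPKM. Clec9a, a receptor of cross-presenting dendritic cells, was detected in all, with 31.0, 23.1 and 33.4 FPKM at P5 and 51.5, 28.1 and 35.1 FPKM at P30 (adjusted p = 0.294 from limma). Zbtb46, a factor of dendritic cells that ECs also express, had 117 ± 4.95 and 150 ± 17.7 FPKM (adjusted p = 0.0493 from limma).

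Lymphocyte and neutrophil genes were mostly listed at or near 0. Cd3e, Cd3d, Cd3g, Cd8a, Cd2 and Nkg7 were listed at 0 in all 6 isolations, and of the 11 T and NK cell genes only Cd4, Lck and Zap70 reached the limit for testing. Of the 21 genes of neutrophils and monocytes in the files, 16 were below that limit and 7 were listed at 0 throughout, S100a8, Mpo, Elane and Cxcr2 among them. Ccr2, the chemokine receptor of inflammatory monocytes, did not exceed 3.71 FPKM. Other genes of that list were well above 0. Plac8 had 39.7 ± 11.1 FPKM at P5 and 135 ± 76.9 FPKM at P30, with no overlap of the ages (adjusted p = 0.0145 from limma). Itgam had 12.85 ± 3.26 and 7.71 ± 3.80 FPKM (adjusted p = 0.163 from limma), with the P30 order of the members. Ly6c2 rose from 70.2 ± 9.73 to 243 ± 17.3 FPKM (adjusted p = 0.000204 from limma), but its close copy Ly6c1, which ECs express, rose from 224 ± 11.7 to 1001 ± 194 FPKM, and the level of each copy is uncertain. Zap70, a kinase of T cells, rose from 5.01 ± 0.848 to 23.3 ± 9.93 FPKM (adjusted p = 0.00481 from limma). Lcn2 was listed at 0 at P5 and had 3.82, 24.8 and 10.7 FPKM in P30 replicates 1, 2 and 3. The B cell genes summed to at most 12.7 FPKM in any isolation.

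Of the 12 ligands and partners of the members, 5 were higher at P30 and the other 7 did not pass the limits. Cx3cl1, fractalkine, the membrane-bound ligand of Cx3cr1, rose from 147 ± 32.6 to 1064 ± 100.2 FPKM (SD, n = 3, log2 difference 2.87, SE 0.17, adjusted p = 0.000119 from limma), with the P30 order of the members, while its receptor had 102, 104 and 97.1 FPKM at P5 and 30.2, 6.39 and 16.2 FPKM at P30. Of the ligands of Csf1r, Il34 rose from 3.50 ± 0.595 to 88.3 ± 55.9 FPKM (log2 difference 4.07, SE 0.50, adjusted p = 0.00113 from limma), with 31.7, 143 and 89.9 FPKM in P30 replicates 1, 2 and 3. Csf1 had 68.3 ± 2.01 and 119 ± 17.3 FPKM, with an adjusted p of 0.00378 from limma and a difference under 2-fold. The proteases that act with C1q also rose, C1ra from 6.91 ± 1.36 to 55.5 ± 18.1 FPKM (adjusted p = 0.000408 from limma) and C1s from 28.2 ± 12.3 to 192 ± 135 FPKM (adjusted p = 0.00894 from limma), as did their inhibitor Serping1, from 58.8 ± 20.8 to 306 ± 131 FPKM (adjusted p = 0.00348 from limma). C1ra, C1s, Serping1, Il34 and Csf1 had the order 2, 3, 1 over the P30 isolations, which was held by 25.9% of all genes tested. All 7 pericyte genes and 5 of the 7 fibroblast genes had it too. Replicates 1 and 3 were close for C1ra, at 44.7 and 45.4 FPKM, and for Csf1, at 106 and 111 FPKM. The part of other cells in the rise of these partner genes was not tested.

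Among the signalling partners, Tyrobp, the adaptor DAP12 of myeloid receptors, had 167, 175 and 139 FPKM at P5 and 88.1, 25.1 and 61.7 FPKM at P30 (log2 difference -1.61, SE 0.40, adjusted p = 0.0185 from limma), outside the limits. Its ratio to C1q was 0.581 ± 0.0286 at P5 and 0.570 ± 0.0711 at P30. Tlr4, which signals with Cd14, had 52.5 ± 3.05 and 42.8 ± 20.8 FPKM, Ly96, the co-receptor of Tlr4, had 68.7 ± 12.6 and 75.4 ± 19.7 FPKM, and Tlr2 had 47.9 ± 7.71 and 42.4 ± 16.9 FPKM. Ly96 and Tlr2 differed by less than the SD of either age, and Tlr4 by less than that of P30 only. The adjusted p from limma was 0.329 for Tlr4, 0.708 for Ly96 and 0.543 for Tlr2. C2 had 10.4 ± 3.88 and 18.003 ± 11.6 FPKM, and C4b had 2.11 ± 1.15 and 17.6 ± 10.3 FPKM with no overlap of the ages (adjusted p = 0.327 and 0.0148 from limma).

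**Figure D4:**
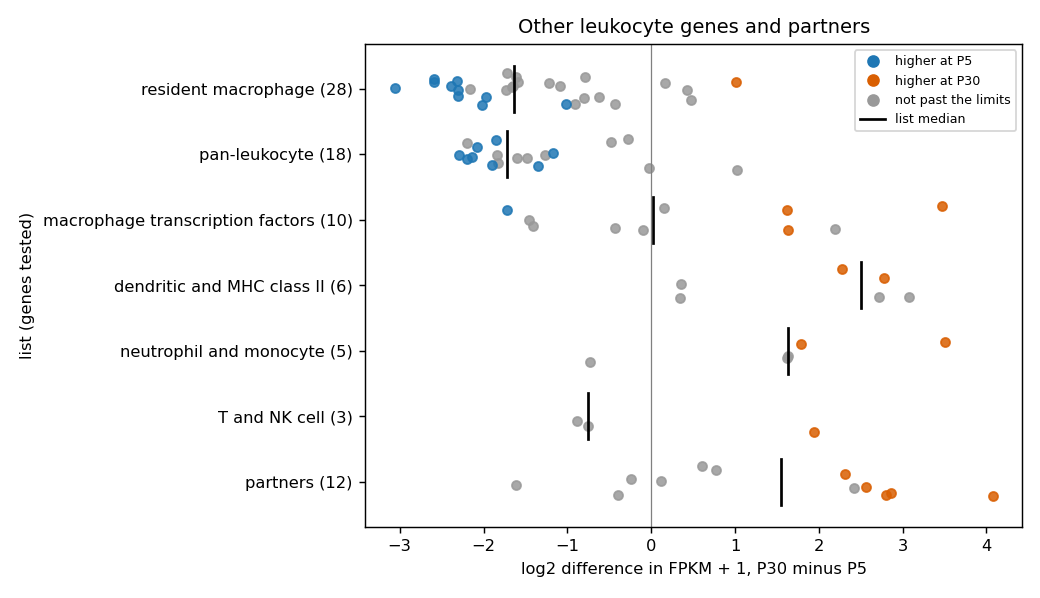
Log2 difference in FPKM + 1, P30 minus P5, with 1 point per gene tested, in 7 lists with the number tested in brackets, coloured by whether the gene was past the limits of the fit and in which direction, and with a black bar for the list median. The macrophage and pan-leukocyte lists centre at -1.63 and -1.72, and the class II and partner lists at 2.50 and 1.54.

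Over the 9 lists of partners and leukocyte genes together, 84 of 131 genes in the files reached the limit for testing, 19 were higher at P5 and 14 at P30, against 5.82% and 5.89% of all genes tested. The count of 19 depended on single isolations. It was 4 without P5 replicate 1, 2 without P5 replicate 2, 3 without P5 replicate 3 and 30 without P30 replicate 1. The count of 14 was 7 without P5 replicate 2, 7 without P5 replicate 3 and 8 without P30 replicate 3. Coro1a and Lcp1 among the genes higher at P5, and Cx3cl1, C1ra, Irf8, Cebpb and Ly6c2 among those higher at P30, passed the limits in the main fit and in all 15 alternative fits. Most single macrophage genes were less stable. F13a1 passed in 11 of the 15 and lost its call without any 1 of the P5 isolations, Emr1 in 9 and Sfpi1 in 7, both also losing it without P30 replicate 3, and P2ry13 in 8 and Aif1 in 10, both also losing it without P30 replicate 2. H2-Aa passed in 8 and H2-Ab1 in 7, with the call kept without P5 replicate 1 and lost without any other isolation. Laptm5 passed in 8 and Zap70 in 9, lost without any P5 isolation or P30 replicate 3. C1s passed in 7, with a call kept among these fits without P30 replicate 1 and lost without any other isolation, and Serping1 in 11, lost without P5 replicate 1, P5 replicate 2 or P30 replicate 3. Cebpa passed in 12 (lost without P5 replicate 2 or 3), Lgmn in 12 (lost without P5 replicate 2 or P30 replicate 3) and Mertk in 11 (lost without replicate 3 of either age).

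The genes whose profile over the 6 isolations was most like that of the C1q chains were sought among all genes tested other than the members. The measure was the root mean square difference between centred values of log2(FPKM + 1). The closest were Tyrobp at 0.11, Pik3ap1 at 0.12, Ptpn6 at 0.16, Cd79b at 0.17 and Tlr7 at 0.22. Among the members, the closest pairs were C1qa with C1qc at 0.18, Csf1r with C1qc at 0.22 and Cx3cr1 with Mrc1 at 0.23. The genes closest to Ptprc, again with the members left out of the search, were Pcdh12 at 0.07, Rap2b at 0.08, Grb10 at 0.10, Haus8 at 0.11 and Hmgb3 at 0.12. By the same measure Ptprc was 0.53 from C1qa, 0.67 from C1qc and 0.73 from C1qb. Pcdh12, an endothelial protocadherin, had 190, 194 and 228 FPKM in the P5 isolations and 69.0, 63.5 and 67.3 FPKM in the P30 isolations.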

How the data were processed

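The authors sequenced cDNA libraries on an Illumina HiSeq2000, processed reads with CASAVA 1.8.2 per the labels, checked them with FastQC, aligned them to mm9 with TopHat and made FPKM values in CuffLinks, normalized for GC content and by the upper quartile. The authors deposited 1 FPKM value per gene symbol and isolation. Upper quartile scaling fixes levels relative to other genes, so FPKM does not count cells. Low values showed no common step: at most 5.04% of genes with low FPKM shared a bin of 0.05 in log2 ratio between 2 isolations, so whole reads were not recovered.

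Samples were grouped by title. From the deposited values, log2(FPKM + 1) was fitted with limma 3.58.1 in R 4.3.3 (trend, no block) over all genes averaging 5 FPKM or more in either age. Genes past both limits, a Benjamini-Hochberg adjusted p below 0.01 and a 2-fold difference in mean FPKM + 1, were called. The fit was tested on simulated data. Tables were made with Python 3.11.15. Positions are those of GENCODE vM1 on mm9 and promoter windows those of RefSeq on GRCm38.p6.

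The members and lists were chosen with earlier results of these data known. Genes named were the members, all partners, the 3 highest and up to 4 genes past the limits per direction in each leukocyte list, the 5 closest profiles to C1q and to Ptprc, and the 2 highest of each other marker list, with others named, after their values were seen, to explain a count, an overlap, a copy or a cell type. Of the genes so named, 2 are counted in their lists and are not reported here by name. Alternatives were other pseudocounts (0.1 and 5), no minimum or a minimum of 10 FPKM, no trend, quantile or total scaling, a replicate block, an adjusted p under 0.05, and each isolation left out.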

Additional observations from a re-analysis of the deposited data

How the results depend on the processing

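The depth of the libraries is unknown and 3 isolations per age were compared. Over the 6 fits that left out 1 isolation, the genes higher at P30 ranged from 396 to 849 and those higher at P5 from 291 to 754, against 735 and 726 with all isolations. The other leukocyte genes ranged from 2 to 30 higher at P5 and from 7 to 14 higher at P30, against 19 and 14, and the members past the limits at P5 from 1 to 5, against 3. With no minimum FPKM, the counts for all genes fell to 242 at P30 and 296 at P5, with 4 and 6 of the other leukocyte genes at P5 and P30 and 1 member at P5. That fit tests 22026 genes. With an adjusted p under 0.05, the counts were 1130 at P30 for all genes, 32 at P5 for the other leukocyte genes and 6 at P5 for the members. Without a trend, 1 member, Ptprc, was past the limits, and the cause was not tested. Since the members were listed with this contrast known, nothing is read from these counts of members either.

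With the replicate number as a block, 10 of the other leukocyte genes were higher at P5, and all 10 were among the 19. Same-numbered isolations had correlations of deviations of -0.06, -0.09 and -0.03. These values show no pairing by replicate number, but they cannot tell whether such isolations were prepared or sequenced together. The 7 members with every P30 isolation below every P5 isolation were 7 or 8 with 1 isolation left out and 7 under either other scaling. Scaling to a common sum moved the median difference of all genes tested from -0.10 to -0.27. Some named genes that were not past the limits changed sign, given as log2 differences, and the cause was not tested. Inpp5d had 0.0059 with quantile normalization, Ly96 had -0.054 with a common sum, and with 1 isolation left out Inpp5d ranged from -0.214 to 0.0896, Ly96 from -0.056 to 0.329 and Tlr2 from -0.511 to 0.0959. The highest value of Inpp5d and Tlr2 and the lowest of Ly96 came without P30 replicate 3, and Inpp5d was also positive, at 0.04, without P30 replicate 2. Without P30 replicate 1, Lyz2 had -0.14, Cd14 -0.08 and Tpsb2 -0.38, and Lyz2 had -0.05 without P5 replicate 3.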

Other observations

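Genes of other blood cells were detected at levels that differed between isolations. The mast cell genes summed to 57.3 FPKM in P30 replicate 1, to 6.75 and 1.57 FPKM in P30 replicates 2 and 3, and to at most 3.72 FPKM at P5. In P30 replicate 1, Cma1, a chymase, had 14.4 FPKM and Tpsb2, a tryptase, had 14.4 FPKM, and both were listed at 0 in the other P30 isolations. Pf4, a chemokine of platelets that macrophages also make, had 407, 456 and 467 FPKM in P5 replicates 1, 2 and 3 and 138, 15.2 and 51.7 FPKM in P30 replicates 1, 2 and 3 (log2 difference -3.17, SE 0.67, adjusted p = 0.00945 from limma, passed in 7 of 15 alternative fits). Gp1bb, a platelet receptor subunit, had 4.57 ± 2.46 FPKM (SD, n = 3) at P5 and 21.9 ± 18.8 FPKM at P30, Ppbp, a platelet chemokine, had 8.58 ± 3.49 and 4.06 ± 3.79 FPKM, and Gp6 was listed at 0 throughout. The 6 platelet genes, of which Pf4 was by far the highest at P5, summed to 187, 44.1 and 69.2 FPKM in P30 replicates 1, 2 and 3. The source of the Pf4 RNA was not tested.

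Lymphatic endothelium can express Mrc1, and its markers were measured too. Of the 6 lymphatic genes tested, 1 had every P30 isolation below every P5 isolation and 3 had every one above, against 33.0% and 22.0% of all genes tested. Mmrn1, a matrix protein of lymphatic and other endothelium, fell from 137.5 ± 39.9 to 46.5 ± 8.18 FPKM (adjusted p = 0.00218 from limma), with P30 isolations that did not share the order of Mrc1. Flt4 had 379 ± 55.3 and 536 ± 71.6 FPKM and Pdpn 8.66 ± 6.13 and 38.3 ± 10.4 FPKM, both higher in every P30 isolation and neither past the limits (adjusted p = 0.0296 and 0.0103 from limma). Prox1, the factor that defines lymphatic ECs, was between 3.54 and 7.47 FPKM in all isolations, and Lyve1, which macrophages also express, had 25.8, 8.82 and 34.9 FPKM at P5 and 10.8, 12.4 and 16.0 FPKM at P30. Red cell genes varied within each age, and Hba-a1, an alpha globin with a close copy, had 251 ± 134 FPKM at P5 and 659 ± 277 FPKM at P30.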
